A study of Homo sapiens with 6 samples.

Results

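The 8 genes described here are a pair of plasminogen activators, PLAU and PLAT, the receptor of the first, PLAUR, and 5 serpins, SERPINE2, SERPINB1, SERPINB6, SERPINA1 and SERPINB5. They were picked by symbol from the 57773 genes of a count table, and all 8 symbols were found once. The list was drawn up with the difference between the groups already known, so the values of the 8 genes on and off dox are a description and carry no test. The symbols fit the name of the group with one exception: PLAUR is a receptor, neither an activator nor a serpin.

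RNA was sequenced from 6 subcutaneous xenografts of PATU, a human cell line of pancreatic ductal adenocarcinoma, in nude mice, which lack a thymus and mature T cells but keep their myeloid cells, vessels and connective tissue. All 6 tumours carried ishME3, an inducible hairpin that targets ME3, a malic enzyme of mitochondria. The tested condition was doxycycline, given to 2 tumours (on dox, hairpin induced) and withheld from 4 tumours (off dox, hairpin not induced). The comparison asks which transcripts differ once the hairpin is induced. No group with another hairpin was used here, so doxycycline itself, the hairpin and lower ME3 cannot be told apart, and all tumours come from 1 cell line.

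Plasmin is a broad protease that dissolves fibrin, cleaves matrix proteins and activates other proteases. It is made from plasminogen, a plasma protein of the liver, by the urokinase-type activator encoded by PLAU and the tissue-type activator encoded by PLAT. The receptor encoded by PLAUR holds urokinase at the cell surface. Serpins are inhibitors that offer a protease a bait loop and trap it in a covalent complex. SERPINE2 can block both activators, and other serpins act on elastase, cathepsin G or intracellular proteases. Pancreatic cancers are known for high levels of urokinase and its receptor.

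Library totals were 24529707 and 25731887 counts on dox and 23855338 to 26885699 counts off dox. ME3 was at 33.3 and 28.5 CPM (counts scaled to library size) on dox, against 37.9 to 44.2 CPM off dox. This was 0.750 of the off-dox level and did not pass (log2 fold change -0.41, SE 0.12, edgeR adjusted p = 0.148). The keratins KRT8 and KRT18 were high in all 6 tumours, but KRT19, a keratin of pancreatic ducts, had 1 count over the 6 tumours. On-dox tumour 1 stood apart in RNA composition: MALAT1 and NEAT1 took 4.08% of its counts, against 1.77% in on-dox tumour 2 and 1.48% to 2.33% off dox. Mitochondrial mRNAs took 0.529%, against 0.260% in on-dox tumour 2 and 0.222% to 0.276% off dox. Host tissue was uneven: 8 skeletal muscle markers summed to 4.11 and 13.3 CPM on dox, against 2.42, 59.6, 6.54 and 575 CPM in off-dox tumours 1 to 4, and all 8 had log2 fold changes below 0. Off-dox tumours 1 and 3 were no higher than on-dox tumour 2 in that sum. None of the markers was called by edgeR or limma voom and 1 was by DESeq2, beside 3.91% of the genes it gave an adjusted p. An unadjusted edgeR p under 0.05 was found for 7, beside 14.3% of all genes. Host reads that align to human genes can be part of every count.

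Ranked by CPM per kilobase of transcript, the activators led and the serpin SERPINB5 was last. In means of 2 on-dox and 4 off-dox tumours, PLAU was at 292 CPM per kilobase on dox and 284 off dox, and PLAT at 69.6 on dox and 69.2 off dox. The intracellular serpins followed, SERPINB6 at 58.0 CPM per kilobase on dox and 63.6 off dox and SERPINB1 at 35.8 on dox and 35.3 off dox, close to the receptor PLAUR at 28.1 on dox and 35.0 off dox. The lowest were SERPINE2 at 4.44 CPM per kilobase on dox and 7.40 off dox, SERPINA1 at 3.28 on dox and 2.89 off dox, and SERPINB5 at 0.277 on dox and 0.136 off dox. The ranges of the 4 off-dox tumours overlapped between PLAT and SERPINB6 and between SERPINB1 and PLAUR, so those neighbours in the order did not differ beyond their spread. The other neighbours had separate off-dox ranges. By CPM alone, 99.5% of the 21308 tested genes lay below PLAU off dox, 94.5% below PLAT and 1.42% below SERPINB5.

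**Figure D1:**
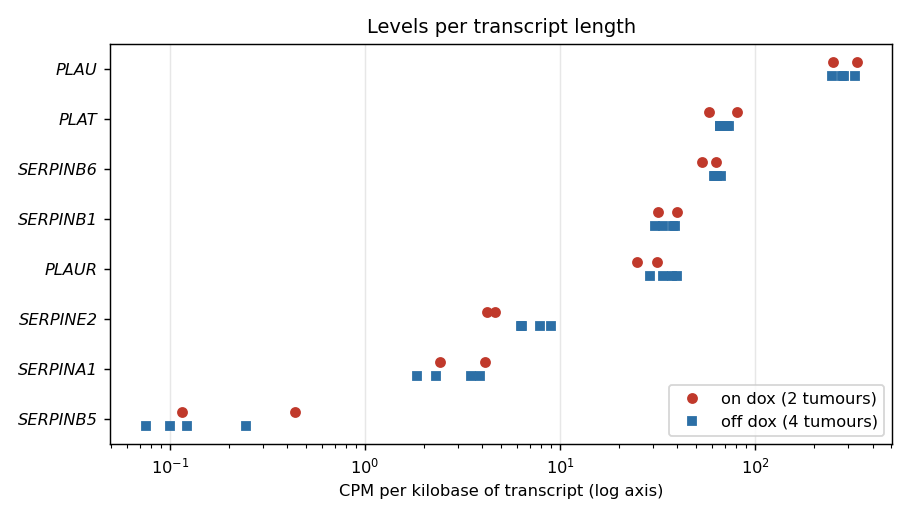
Level of each of the 8 genes in every tumour, as CPM per kilobase of transcript on a log axis, with on-dox tumours as circles above off-dox tumours as squares. PLAU is highest at 249 to 332, SERPINB5 lowest at 0.0753 to 0.440, and in SERPINE2 alone the circles and squares do not overlap.

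None of the 8 genes was called different on dox by edgeR's quasi-likelihood test with Benjamini-Hochberg adjustment over all genes at a threshold of 0.05, where 225 of 21308 genes (1.06%) were called. At an unadjusted p under 0.05 the count was 1 of 8, SERPINE2, beside 14.3% of all genes. DESeq2 called 1 of 8, again SERPINE2, beside 3.91% of the genes it gave an adjusted p, and it gave SERPINB5 none. Limma voom called 0 of 8, beside 0.864%. Without the low-count filter edgeR called 1 of 8, SERPINE2, beside 1.96%. The groups did not overlap in 1 of 8 genes, SERPINE2, against 23.0% of all tested genes in either direction and 11.5% in the lower direction. The median log2 fold change of the 8 was 0.01, beside 0.00 over all genes. Because the genes were listed with these values known, nothing is read from these counts. All 8 passed the low-count filter, SERPINB5 with more than 10 counts in only 1 tumour of each group.

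**Figure D2:**
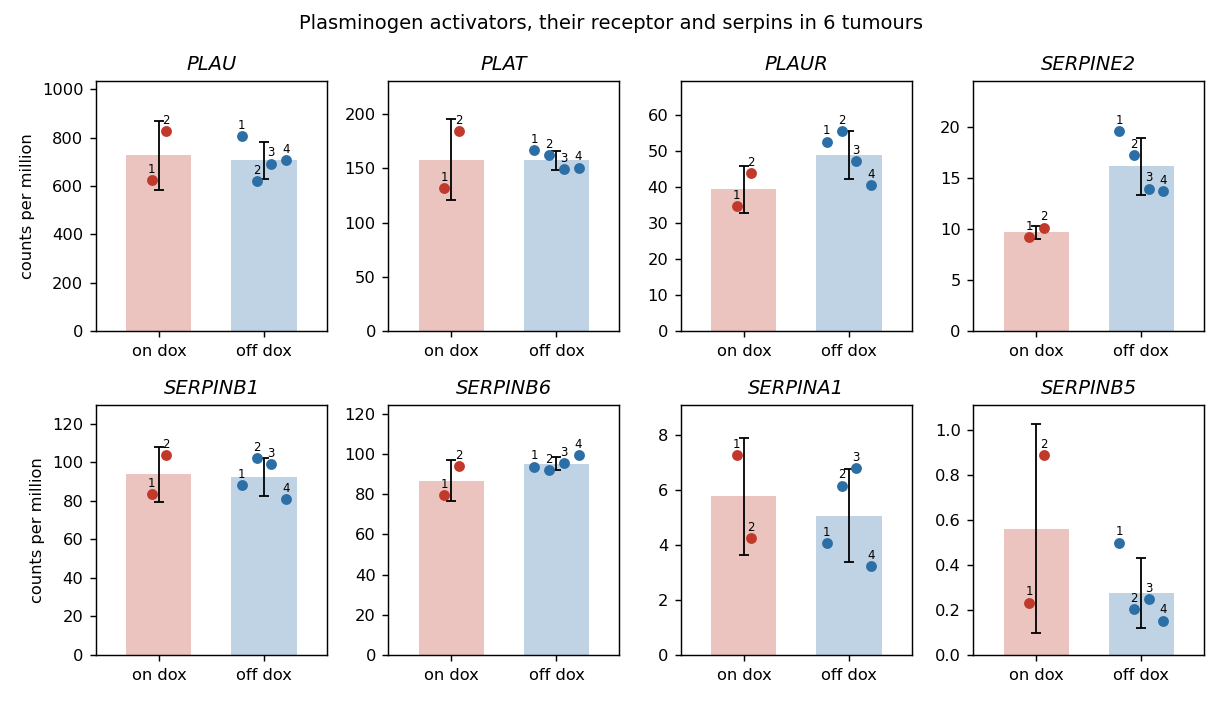
CPM of the 8 genes in each tumour, on dox left and off dox right, with numbered points for tumours, bars for means and whiskers for SD (n = 2 and n = 4). In SERPINE2 both on-dox tumours, at 9.22 and 10.1, lie below the lowest off-dox tumour at 13.7, and in the other 7 genes the groups overlap.

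SERPINE2 (ENSG00000135919), which encodes protease nexin-1, a secreted inhibitor of thrombin, urokinase and the tissue-type activator, was the 1 gene of the 8 whose groups were separate. It was at 9.22 and 10.1 CPM in on-dox tumours 1 and 2, against 19.6, 17.2, 13.95 and 13.7 CPM in off-dox tumours 1 to 4. The on-dox tumours were close to each other, while the off-dox tumours spanned 1.43-fold. The means were 9.67 ± 0.642 CPM (SD, n = 2) on dox and 16.1 ± 2.82 CPM (SD, n = 4) off dox. The log2 fold change was -0.74 (SE 0.18), and with 1 tumour left out it lay between -0.81 and -0.63. The raw counts behind these values were 238 and 250 on dox and 339 to 509 off dox.

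Fibroblasts also make SERPINE2, so a list of fibroblast markers is set beside it. Counts on human genes do not tell whether host or tumour cells were the source of these markers. The summed level of 12 fibroblast markers was 173 and 381 CPM on dox, against 929, 361, 374 and 197 CPM in off-dox tumours 1 to 4. Of these markers 0 of 11 tested were called by edgeR, DESeq2 or limma voom and 3 had an unadjusted edgeR p under 0.05, beside 1.06% and 14.3% of all genes. Their log2 fold changes were below 0 in 10 of 11, and LUM was at 0 or 1 count in every tumour. Off-dox tumour 1 was highest for both SERPINE2 and the fibroblast sum. On-dox tumour 2 was above 3 of 4 off-dox tumours in the fibroblast sum and below all 4 in SERPINE2. The collagens COL1A1, COL3A1 and COL1A2 made up most of that sum. DCN, at 1 to 17 counts, was the only tested marker with separate groups. It was at 0.0387 and 0.203 CPM on dox, against 0.305 to 0.654 CPM off dox. The part of host tissue in SERPINE2 was not tested, and in bulk tumours fewer cells of a type and less RNA per cell cannot be told apart.

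The windows upstream of the RefSeq starts of SERPINE2 and PLAUR are shown because these members had the lowest log2 fold changes among the 8. They hold the 250 bases before each start (RefSeq, GRCh38.p14), 5′ to 3′ on the gene's strand, which is the minus strand for all. Windows were found for 7 of the 8 genes, 13 in all, and PLAT was not matched. The count table does not tell which start was used.
SERPINE2, chr2:224031479-224031728: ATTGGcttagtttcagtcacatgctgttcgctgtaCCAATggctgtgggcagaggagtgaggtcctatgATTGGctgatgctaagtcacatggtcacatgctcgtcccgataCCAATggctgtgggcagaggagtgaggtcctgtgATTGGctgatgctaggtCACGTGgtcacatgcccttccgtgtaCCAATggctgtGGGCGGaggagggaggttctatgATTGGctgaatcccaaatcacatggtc
SERPINE2, chr2:224038641-224038890: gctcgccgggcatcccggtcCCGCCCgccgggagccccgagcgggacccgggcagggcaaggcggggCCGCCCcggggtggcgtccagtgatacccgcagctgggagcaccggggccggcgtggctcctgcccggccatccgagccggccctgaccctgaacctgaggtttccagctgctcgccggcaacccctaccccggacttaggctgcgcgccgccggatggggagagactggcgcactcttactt
PLAUR, chr19:43670170-43670419: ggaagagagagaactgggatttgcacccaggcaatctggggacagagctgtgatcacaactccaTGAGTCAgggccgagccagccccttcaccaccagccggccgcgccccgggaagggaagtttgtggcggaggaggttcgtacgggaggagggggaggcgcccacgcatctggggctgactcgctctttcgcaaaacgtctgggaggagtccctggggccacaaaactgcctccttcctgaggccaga
Capitals mark matches on either strand to TGANTCA (a pattern for AP-1, N for any base), CACGTG (an E-box) and GGGCGG (the GC box). Also marked are CCAAT (the CCAAT box) and TATAAA (the TATA element), and no matches share a base in these 3 windows. The first SERPINE2 window held 7 CCAAT boxes, 1 E-box and 1 GC box. Most of the 7 lie in near copies of a stretch, from a CCAAT to an ATTGG, repeated along the window. At least as many CCAAT boxes were found in 0.0199% of 35116 human windows of this length, and at least 1 in 32.0%. The 0.0199% is for the highest count of any motif in the 13 windows, so it is a picked value. The second SERPINE2 window held 2 GC boxes, as 42.6% of windows held at least 1. The PLAUR window held 1 match to the AP-1 pattern, TGAGTCA, and that of SERPINB5 held 1 with another middle base, TGAATCA. Matches with any middle base were found in 6.57% of windows. These matches describe letters in the reference and show no binding.

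PLAU (ENSG00000122861), the urokinase gene, had the highest level of the 8 and similar means in both groups. It was at 626 and 827 CPM on dox, against 807, 620, 693 and 707 CPM in off-dox tumours 1 to 4. On-dox tumour 1 lay near the bottom of the off-dox range and on-dox tumour 2 just above its top. The means were 727 ± 142 CPM (SD, n = 2) on dox and 707 ± 76.8 CPM (SD, n = 4) off dox, a log2 fold change of 0.04 (SE 0.14, 95% interval -0.27 to 0.35). Leaving out on-dox tumour 1 gave 0.23 and leaving out on-dox tumour 2 gave -0.18, so the sign depended on which on-dox tumour was kept. C10orf55, a gene on the opposite strand, shares 916 of the 2950 exon bases of PLAU in GENCODE 29. It had 117 and 119 counts on dox and 125 to 208 off dox, far below the 15292 to 20969 counts of PLAU over all tumours. As the strand setting is not stated, whether reads in the shared bases were counted for PLAU cannot be told.

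PLAT (ENSG00000104368), the tissue-type activator best known for dissolving clots, followed the same pattern. It was at 132 and 184 CPM on dox, against 166, 162, 149 and 151 CPM in off-dox tumours 1 to 4. Both extremes of the 6 tumours were on-dox tumours, with the 4 off-dox tumours between them. The log2 fold change was 0.01 (SE 0.13, 95% interval -0.27 to 0.29), with 0.23 when on-dox tumour 2 stood alone and -0.26 when on-dox tumour 1 did. The off-dox tumours varied by 5.38% (coefficient of variation), less than those of PLAU at 10.9%.

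PLAUR (ENSG00000011422), the urokinase receptor, was at 34.7 and 44.0 CPM on dox, against 52.7, 55.6, 47.3 and 40.6 CPM in off-dox tumours 1 to 4. On-dox tumour 1 was the lowest of the 6, and on-dox tumour 2 lay between off-dox tumours 4 and 3, so the groups overlapped. The means were 39.4 ± 6.57 CPM (SD, n = 2) on dox and 49.0 ± 6.64 CPM (SD, n = 4) off dox. The log2 fold change was -0.32 (SE 0.15), with -0.15 when on-dox tumour 2 stood alone and -0.50 when on-dox tumour 1 did.

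The clade B serpins SERPINB1 and SERPINB6 act inside cells, the first on neutrophil elastase, cathepsin G and related proteases, the second on cathepsin G and trypsin-like proteases. SERPINB1 (ENSG00000021355) was at 83.6 and 104 CPM on dox, against 88.1, 102, 99.1 and 80.8 CPM off dox, with overlapping groups. Its log2 fold change was 0.02 (SE 0.12, 95% interval -0.25 to 0.29). SERPINB6 (ENSG00000124570) was at 79.6 and 93.8 CPM on dox, against 93.6, 92.0, 95.4 and 99.6 CPM off dox. It had the tightest off-dox values of the 8 (coefficient of variation 3.44%), and only on-dox tumour 1 lay outside them. Its log2 fold change was -0.13 (SE 0.10, 95% interval -0.35 to 0.08), with -0.02 when on-dox tumour 2 stood alone and -0.26 when on-dox tumour 1 did.

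SERPINA1 (ENSG00000197249) encodes alpha1-antitrypsin, the main plasma inhibitor of neutrophil elastase, and varied most among the 7 genes with over 50 counts in every tumour. It was at 7.28 and 4.25 CPM on dox, against 4.08, 6.16, 6.79 and 3.24 CPM in off-dox tumours 1 to 4. On-dox tumour 1 and off-dox tumours 2 and 3 were high and the other 3 tumours were low, which cut across the groups. The log2 fold change was 0.19 (SE 0.33), with -0.25 when on-dox tumour 2 stood alone and 0.52 when on-dox tumour 1 did. Liver is its main source in the body, and the summed level of 6 hepatocyte markers was 0.0387 and 0.0810 CPM on dox and 0.0405 to 0.305 CPM off dox.

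SERPINB5 (ENSG00000206075) encodes maspin, a serpin of epithelial cells that does not inhibit proteases. It was hardly detected, with 6 and 22 counts on dox, against 13, 5, 6 and 4 counts in off-dox tumours 1 to 4. On-dox tumour 2 alone stood above the rest. The log2 fold change of 1.01 (SE 0.68, 95% interval -0.49 to 2.50) became -0.25 when on-dox tumour 2 was left out and 1.68 when on-dox tumour 1 was. At these counts no difference could be resolved.

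Of the 8 genes, 7 were higher in on-dox tumour 2 than in on-dox tumour 1, and SERPINA1 was the exception. Over all tested genes 48.9% were higher in on-dox tumour 2. The ratio of on-dox tumour 1 to on-dox tumour 2 was 0.716 for PLAT, 0.757 for PLAU, 0.789 for PLAUR, 0.805 for SERPINB1, 0.849 for SERPINB6 and 0.910 for SERPINE2. It was 0.261 for SERPINB5, at 6 and 22 counts, and 1.71 for SERPINA1. On-dox tumour 1 is also the one with the high shares of nuclear and mitochondrial RNA given above, and the part of RNA composition in these ratios was not tested.

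Ratios of counts within a tumour do not depend on library scaling, and these were chosen after the values were seen. There were 18.02 and 18.8 PLAU counts per PLAUR count on dox, against 15.3, 11.2, 14.7 and 17.4 in off-dox tumours 1 to 4. Both on-dox tumours lay above the off-dox range, by a small margin over off-dox tumour 4. Per SERPINE2 count there were 67.9 and 81.7 PLAU counts on dox, against 36.0 to 51.6 off dox. For PLAT there were 14.3 and 18.2 counts per SERPINE2 count on dox, against 8.50 to 11.0 off dox. With PLAU and PLAT near 0 in log2 fold change, these separate groups restate that of SERPINE2. The ratio of the activators to each other overlapped, at 4.75 and 4.49 PLAU counts per PLAT count on dox and 3.82 to 4.85 off dox. The ratio of the intracellular serpins overlapped as well, at 1.05 and 1.11 SERPINB1 counts per SERPINB6 count on dox and 0.811 to 1.11 off dox.

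**Figure D3:**
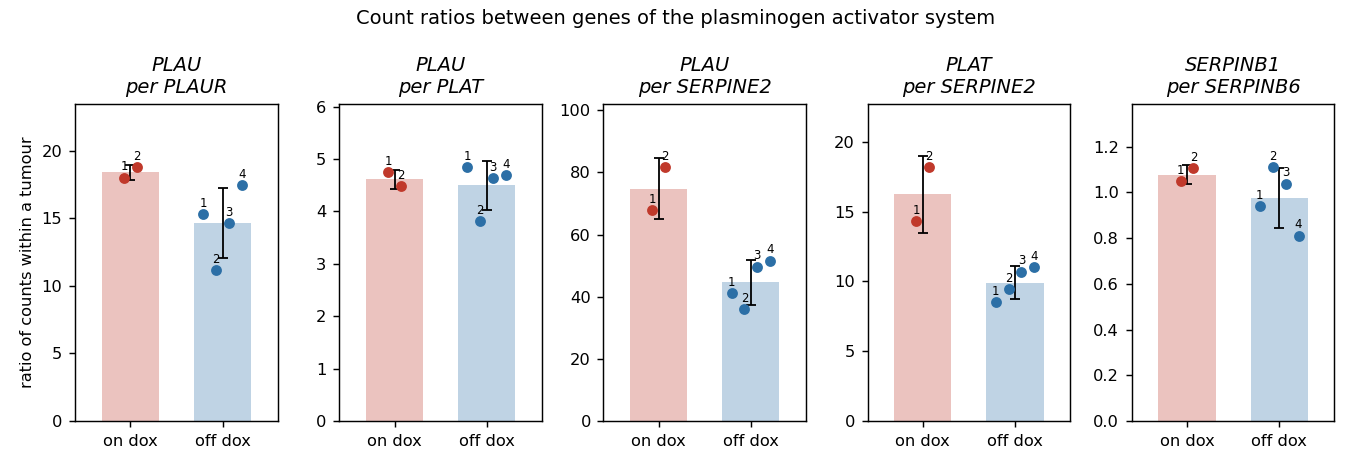
Ratios of raw counts between genes within each tumour, on dox left and off dox right, with numbered points for tumours, bars for means and whiskers for SD. PLAU per SERPINE2 is 67.9 and 81.7 on dox and 36.0 to 51.6 off dox, while PLAU per PLAT overlaps between the groups.

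Of 31 other serpins that were listed, 10 were tested and 0 were called by edgeR, DESeq2 or limma voom, while 3 had an unadjusted edgeR p under 0.05, beside 1.06% of all genes called and 14.3% at that unadjusted p. Their log2 fold changes were above 0 in 5 and below 0 in 5, with a median of 0.01 beside 0.00 over all genes. Groups were separate in 2 that were higher and 2 that were lower on dox, beside 11.5% of all tested genes in each direction. SERPINH1, the collagen chaperone HSP47, was at 106 CPM on dox and 151 CPM off dox (log2 fold change -0.51, SE 0.16, edgeR adjusted p = 0.180). SERPINB8, an intracellular inhibitor of furin, was at 10.9 CPM on dox and 7.41 CPM off dox (log2 fold change 0.56, SE 0.18, edgeR adjusted p = 0.190). SERPINI1, the neuronal inhibitor neuroserpin, was at 2.83 CPM on dox and 4.57 CPM off dox, and SERPINF1, the secreted protein PEDF, at 2.52 CPM on dox and 1.67 CPM off dox. SERPINF2, the plasmin inhibitor alpha2-antiplasmin, had 15 and 13 counts on dox and 18 to 36 off dox. SERPINB2, an inhibitor of urokinase, had 1 count over the 6 tumours.

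Many serpin genes lie in clusters. The chromosome 6 cluster of SERPINB1, SERPINB9 and SERPINB6 had off-dox means of 35.3, 11.1 and 63.6 CPM per kilobase. SERPINB9, the inhibitor of granzyme B, was at 11.7 CPM per kilobase on dox. In the chromosome 18 cluster of 10 genes, which holds SERPINB5, off-dox means ran from 0 to 2.32 CPM per kilobase, led by SERPINB8 at 3.43 on dox and 2.32 off dox, and 3 genes were tested. In the chromosome 14 cluster of 9 genes, SERPINA1 was the only one tested, and 7 of the 9 had at most 3 counts in any tumour. A count of 0 allows up to 0.116 and 0.122 CPM in the on-dox tumours and 0.114 to 0.124 CPM in the off-dox tumours, for counting error only.

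The substrate was not a tumour transcript: PLG, plasminogen, had 0 counts on dox and 1 count off dox. Of 43 listed partners of the plasmin system 28 were tested, of which 1 fell (MRC2), 0 rose and 27 did not pass. Their median log2 fold change was -0.01. An unadjusted edgeR p under 0.05 was found for 8 of 28, beside 14.3% of all genes. With separate groups, 5 were higher and 4 lower on dox, beside 11.5% of all tested genes in each direction. MRC2 encodes an endocytic collagen receptor that associates with PLAUR. It was at 94.9 and 93.6 CPM on dox, against 124 to 144 CPM off dox (log2 fold change -0.49, SE 0.09, edgeR adjusted p = 0.0412), beside 126 of 21308 genes (0.591%) called lower. It passed in 0 of the 6 fits that leave out a tumour, with adjusted p of 0.0514 to 0.117 and log2 fold changes of -0.52 to -0.45.

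Groups overlapped for ANXA2 and S100A10, which dock plasminogen at the cell surface, and for the clearance receptor LRP1. ANXA2 was at 839 ± 201 CPM (SD, n = 2) on dox and 923 ± 105 CPM (SD, n = 4) off dox, and its partner S100A10 at 141 ± 13.5 CPM on dox and 143 ± 12.1 CPM off dox. LRP1, which takes up activator and inhibitor complexes, was at 212 ± 8.93 CPM on dox and 231 ± 18.3 CPM off dox. Other receptors of these kinds, picked after their values were seen, had separate groups without being called. Separate groups were found in 23.0% of all tested genes. The plasminogen receptor PLGRKT was at 9.61 and 11.3 CPM on dox, against 12.1 to 14.3 CPM off dox, and the clearance receptor VLDLR at 10.03 and 7.62 CPM on dox, against 10.8 to 12.3 CPM off dox. Of the 28 tested partners 14 had log2 fold changes above 0 and 14 below 0. The 4 uncalled ones with the smallest p are given next, each with separate groups and higher on dox. SORL1, a sorting receptor, was at 176 CPM on dox and 111 CPM off dox (log2 fold change 0.67, SE 0.14, edgeR adjusted p = 0.0510). THBD, which encodes thrombomodulin, was at 44.4 CPM on dox and 30.5 CPM off dox (log2 fold change 0.54, SE 0.14, edgeR adjusted p = 0.0948). EGFR, which acts with PLAUR in signalling, was at 516 CPM on dox and 400 CPM off dox (log2 fold change 0.37, edgeR adjusted p = 0.139). IGF2R, which binds PLAUR and plasminogen, was at 461 CPM on dox and 346 CPM off dox (log2 fold change 0.41, edgeR adjusted p = 0.154). Vitronectin, VTN, a matrix protein that binds PLAUR, was at 2.21 CPM on dox and 1.46 CPM off dox. The broad inhibitor A2M was at 0.336 CPM on dox and 0.320 CPM off dox.

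Of 45 other serine proteases and inhibitors 18 were tested, of which 1 rose (RECK), 0 fell and 17 did not pass. Their median log2 fold change was 0.12. An unadjusted edgeR p under 0.05 was found for 5 of 18, beside 14.3% of all genes. With separate groups, 2 were higher and 3 lower on dox, beside 11.5% of all tested genes in each direction. RECK encodes a membrane-anchored inhibitor of matrix metalloproteinases. It was at 33.8 and 31.6 CPM on dox, against 18.4 to 23.6 CPM off dox (log2 fold change 0.66, SE 0.12, edgeR adjusted p = 0.0377), beside 99 of 21308 genes (0.465%) called higher. It also passed in 2 of the 6 fits that leave out a tumour, those lacking off-dox tumour 4 or on-dox tumour 2, with adjusted p of 0.0385 to 0.141. SLPI, a secreted inhibitor of neutrophil proteases, was at 18.7 and 16.7 CPM on dox, against 4.58 to 10.2 CPM off dox (log2 fold change 1.20, SE 0.26, edgeR adjusted p = 0.0617).

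The matrix-modifying protease HTRA3 was at 0.977 CPM on dox and 2.04 CPM off dox (log2 fold change -1.06, SE 0.39, edgeR adjusted p = 0.252), and -1.63 to -0.65 with 1 tumour left out, the ends being the fits lacking on-dox tumour 2 and on-dox tumour 1. Neurotrypsin, PRSS12, was at 6.11 CPM on dox and 8.85 CPM off dox (log2 fold change -0.54, SE 0.23, edgeR adjusted p = 0.323), and -0.35 with off-dox tumour 1 left out. HTRA1 was at 7.84 CPM on dox and 5.07 CPM off dox (log2 fold change 0.63, SE 0.27, edgeR adjusted p = 0.326), with 5.35 and 10.3 CPM in on-dox tumours 1 and 2. Its log2 fold change was 1.03 when on-dox tumour 2 stood alone and 0.07 when on-dox tumour 1 did. The epithelial membrane protease matriptase, ST14, was low at 1.31 CPM on dox and 0.974 CPM off dox. Of its inhibitors, SPINT2 was at 300 ± 71.2 CPM on dox and 345 ± 23.8 CPM off dox, and SPINT1 at 2.39 ± 0.916 CPM on dox and 1.53 ± 0.366 CPM off dox (SD, n = 2 on dox and n = 4 off dox).

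**Figure D4:**
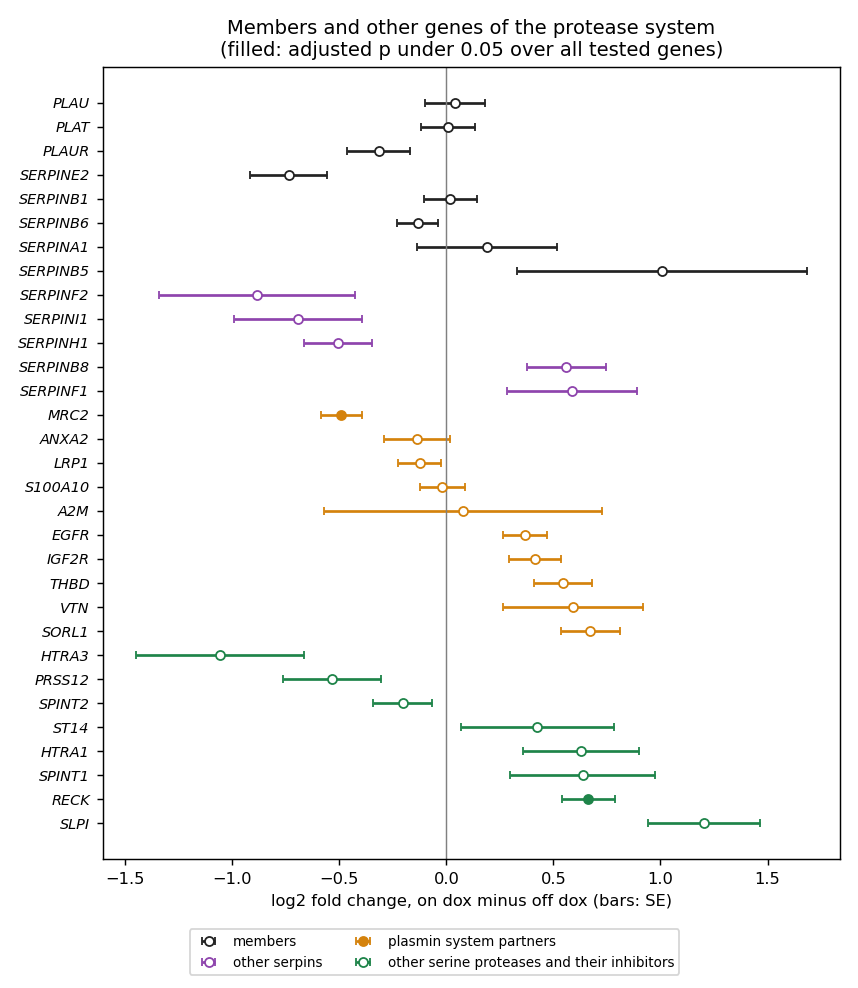
Log2 fold change on dox minus off dox with its SE for the 8 genes and for the named genes of the other lists, filled where the adjusted p was under 0.05 over all tested genes. MRC2 at -0.49 and RECK at 0.66 are filled, and none of the 8 genes is.

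For genes whose log2 CPM spanned at least 1 over the 6 tumours, the genes with the most similar centred profile are given as a description. Likeness was the root mean square difference in log2 CPM over the 6 tumours, among the 10179 genes whose mean log2 CPM reached 3. WDR13 (0.087) and PLD6 (0.089) were nearest to SERPINE2. WDR13 was at 35.2 CPM on dox and 53.1 CPM off dox. ZMIZ1 (0.156) and LAMA3 (0.170) were nearest to SERPINA1, and SNORA34 (0.386) and SNORA54 (0.387) to SERPINB5. With 6 tumours and 10179 genes, near matches can be found for many profiles.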

How the data were processed

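RNA sequencing covered 6 xenograft tumours, 2 on dox and 4 off dox, grouped by their titles. The authors deposited whole-number raw counts per gene. The build hg19 and the tools HTSeq, STAR and limma are named per the submitters' processing notes. Tool roles and versions, the strand setting and how mouse reads were handled are not stated there. The table's 57798 lines include 25 repeats of an identifier, which were dropped to give 57773 genes; 18931 of 24323 missing symbols came from a table of gene names.

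The test was that of edgeR 4.0.16 (R 4.3.3), with TMM scaling and filterByExpr at its defaults, which kept 21308 genes: the quasi-likelihood F test on all 6 tumours without covariates, Benjamini-Hochberg adjustment and a threshold of 0.05. CPM uses TMM-scaled totals, and a positive log2 fold change means higher on dox. Members and gene lists were chosen with earlier results of these data known. Named genes are the 8 members, 11 defining genes of the system, and called genes and up to 4 uncalled genes with the smallest p of each of 3 lists. One gene of the system is not reported here. Transcript lengths are medians over GENCODE 29 basic coding transcripts on GRCh38, another build than the files, so they scale levels only. The labels name separate tumours, so a p-value reflects only how tumours of 1 cell line vary. No pair was a duplicate (chi-square per degree of freedom 6.14 to 13.2 off dox and 31.4 on dox). Intervals of log2 fold changes come from the edgeR fit and include the spread between tumours. Limits for counts of 0 cover counting error only.

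On simulated counts with 200 changed genes the test recovered 38% of 1.5-fold, 67% of 2-fold and 96% of 4-fold changes. Of 142 calls 8 were false (20662 genes). The changed genes were drawn above a level that some genes given here did not reach. SERPINB5, A2M, ST14, SERPINF2, SERPINF1, SPINT1, VTN and HTRA3 were among those below it, so these shares do not cover such genes. Simulated tumours differed only in depth, the set changes and random spread, so the RNA composition of on-dox tumour 1 was not modelled. Alternatives were DESeq2 size factors, upper quartile scaling, no or a stricter filter (10 counts in 4 tumours), DESeq2 1.42.0, limma voom 3.58.1, a replicate block and leaving out each tumour. With 1 on-dox tumour left, its spread is taken from the off-dox tumours.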

Additional observations from a re-analysis of the deposited data

Results flagged for a closer look

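HTRA1 stood out within the off-dox group: off-dox tumour 3 was at 3.87 CPM, while the other 3 off-dox tumours were at 5.34 to 5.56 CPM, a gap of 0.873 of the group's range, above Dixon's critical value for 4 samples. It was 1 flag among 36 groups of 4 examined, and chance flags about 1 in 20 such groups.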

How the results depend on the processing

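Over all tested genes the number called was 225, and it was 216, 228, 247 and 184 with DESeq2 size factors, upper quartile scaling, the stricter filter and limma voom. It was 770 with no low-count filter, 719 with the DESeq2 test, and 72 (without on-dox tumour 1) to 562 (without on-dox tumour 2) with 1 tumour left out; the cause was not tested. Of the 8 members 0 were called, also in each fit without a tumour (0 to 0), and 1, SERPINE2, with no filter and with the DESeq2 test. The other serpins had 0 calls, 1 with no filter (SERPINH1), and 0 to 0 with 1 tumour left out. The plasmin system partners had 1 call, 3 with no filter (MRC2, SORL1 and THBD), 2 with the stricter filter (MRC2 and SORL1), 5 with the DESeq2 test (these 3, EGFR and IGF2R), and 0 to 1 with 1 tumour left out, which was THBD without off-dox tumour 1 and SORL1 without on-dox tumour 2. The other serine proteases and inhibitors had 1 call, 2 (RECK and SLPI) with no filter, with the DESeq2 test and with limma voom, and 0 to 1 with 1 tumour left out. Beside these list counts, the shares of all genes called were 1.06% in the main fit and 1.96% with no filter. They were 3.91% with the DESeq2 test and 0.864% with limma voom. The labels number tumours within each group, but the deviations of same-numbered tumours correlated at -0.0319 and 0.00631, so the numbers were not taken as pairs. With a replicate block 53 genes were called, and 0 members, 0 other serpins, 0 partners and 0 other proteases and inhibitors, with 1 residual degree of freedom. SERPINB5, with 4 to 22 counts, gave no value with the stricter filter or without off-dox tumour 1, and no adjusted p with DESeq2. Depth also limits A2M, with 3 to 13 counts. It gave no value with the stricter filter or without off-dox tumour 2, and no adjusted p with DESeq2.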

Other observations

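SERPING1, the C1 inhibitor of the complement and contact systems, was at 2.87 and 0.891 CPM in on-dox tumours 1 and 2 and at 1.15, 2.64, 2.88 and 1.22 CPM in off-dox tumours 1 to 4. The 3 high tumours are the 3 that were high in SERPINA1. C1S, a complement protease that SERPING1 inhibits, was at 27.4 and 34.6 CPM on dox and at 15.3, 26.4, 28.3 and 12.2 CPM off dox, high in the same 3 tumours and in on-dox tumour 2. These genes were picked after their values were seen, and no test was made.

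The kallikreins KLK5, KLK6, KLK7 and KLK8 and the trypsin PRSS1 had no count in any tumour, nor had TFPI2, an inhibitor of plasmin. KLK10 had 7 and 8 counts on dox and 1 to 6 off dox. The trypsin PRSS3 had 12 and 17 counts on dox and 4 to 16 off dox. TFPI was at 125 CPM on dox and 137 CPM off dox.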
